A study of Mus musculus with 12 samples.

Results

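The heat shock protein and DNAJ chaperone genes were examined in the 4 subsets of CD4 SP thymocytes, SP1 to SP4. A gene belonged to the family when its symbol began with Hspa, Hspb, Hspd, Hspe, Hsph, Hsp90, Dnaja, Dnajb or Dnajc followed by a number, and when a probe set of the Affymetrix Mouse Genome 430 2.0 array named it alone. By this rule 70 of 18193 genes were members, read by 169 of 45037 probe sets. For a gene with several, the probe set with the highest mean over the 12 arrays was read. Hsp90ab1, the constitutive cytosolic Hsp90, was not named alone by a probe set in the annotation used here and was not analysed.

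All 12 samples were CD4+CD8-CD25-NK1.1- thymocytes of untreated C57BL/6 mice aged 6 to 8 weeks, with 3 arrays per subset. SP1 was Qa-2-6C10+CD69+, SP2 was Qa-2-6C10-CD69+, SP3 was Qa-2-6C10-CD69- and SP4 was Qa-2+6C10-CD69-, and the question was which genes change along this order of maturation. Each sample came from pooled thymi after CD8+ cells had been killed with antibody and complement, and the sort for the arrays did not remove mature Qa-2+ T cells that return to the thymus. The array values are probe set intensities on a linear scale, which can be set against each other between subsets for 1 probe set but not between genes. These are bulk samples, so a lower level cannot be told apart as fewer cells that express a gene or less RNA per cell.

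Of 10 markers of CD4 T cells, 7 were measured, and all 7 had a mean intensity of 100 or more. The summed intensity of 9 measured markers of cortical double positive thymocytes varied widely. It lay between 1090 and 7604 in SP1, 693.5 and 2552 in SP2, 2947 and 14090 in SP3, and 1306 and 3660 in SP4. The 7 measured genes that mark NKT and innate-like T cells summed to at most 587.9 on the arrays of SP1, SP2 and SP3 and to between 1500 and 2441 in SP4. The 4 arrays numbered replicate 3 stood apart from the other 8 across the whole array, with 37.9% of all probe sets differing at an adjusted p under 0.05. Arrays that shared a replicate number deviated together, as did those of replicate 1 with those of replicate 2. Results are therefore also given from a fit that holds the replicate number as a block, where that changes a call.

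Hsp70 proteins bind short hydrophobic stretches of unfolded clients in a cycle driven by ATP. J proteins, the products of the Dnaj genes, deliver clients and trigger ATP hydrolysis by Hsp70, and nucleotide exchange factors, among them the Hsp110 proteins, reset the cycle. Hsp90 finishes the folding of kinases and receptors, including the T cell kinase Lck, and the chaperonin Hsp60 with its lid Hsp10 folds proteins inside mitochondria. Small heat shock proteins hold unfolded proteins without ATP. The cytosolic heat shock genes are driven by Hsf1 through heat shock elements, whereas those of the endoplasmic reticulum (ER) answer the unfolded protein response. In T cells the family is best known for its rise after heat, activation and proteotoxic stress.

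Promoters are shown for a few genes of the cytosolic, mitochondrial and ER classes, since these genes carry the levels and shifts given after them. Promoter windows of 250 bases before to 50 bases after an annotated start were taken from RefSeq (GRCm38.p6) for 57 of the 70 genes. Heat shock elements were searched as GAANNTTC or TTCNNGAA, each of which reads the same on both strands, and as the 2 motifs overlapping by 3 bases. The ER stress element was searched on both strands as CCAAT, then 9 bases, then CCACG. Capitals mark the matches. Hspe1, which encodes the mitochondrial lid Hsp10, lies head to head with Hspd1, which encodes Hsp60, and their windows share 285 of 300 bases. The Hspe1 window (chr1:55087898-55088197, plus strand) holds 3 heat shock motifs, each overlapping the next by 3 bases.
Hspe1: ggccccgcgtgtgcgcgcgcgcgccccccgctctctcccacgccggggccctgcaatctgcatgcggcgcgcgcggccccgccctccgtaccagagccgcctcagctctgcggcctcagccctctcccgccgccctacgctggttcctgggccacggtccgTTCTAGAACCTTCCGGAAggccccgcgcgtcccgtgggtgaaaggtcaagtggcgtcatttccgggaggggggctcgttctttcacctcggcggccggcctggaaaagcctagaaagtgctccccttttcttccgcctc
In Hsph1, which encodes an Hsp110 exchange factor, the window (chr5:149636266-149636565, minus strand) holds a motif before the start and an overlapping pair just after it.
Hsph1: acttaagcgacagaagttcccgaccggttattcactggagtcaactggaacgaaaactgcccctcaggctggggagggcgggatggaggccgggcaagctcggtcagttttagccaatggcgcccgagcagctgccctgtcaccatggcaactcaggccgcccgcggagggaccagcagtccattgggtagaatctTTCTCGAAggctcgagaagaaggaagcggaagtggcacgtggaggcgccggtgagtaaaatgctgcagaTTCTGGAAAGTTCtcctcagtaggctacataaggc
The stress-inducible cytosolic Hsp70 genes Hspa1a and Hspa1b have windows that are identical at 296 of 300 positions. That of Hspa1b (chr17:34959189-34959488, minus strand) holds 1 heat shock motif.
Hspa1b: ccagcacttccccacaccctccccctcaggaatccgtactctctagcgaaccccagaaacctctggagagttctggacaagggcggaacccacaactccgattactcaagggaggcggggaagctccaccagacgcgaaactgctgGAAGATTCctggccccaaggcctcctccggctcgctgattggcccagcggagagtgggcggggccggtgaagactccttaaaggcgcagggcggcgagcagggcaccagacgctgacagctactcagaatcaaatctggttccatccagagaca
Dnaja4 encodes a class A J protein. The window of its second annotated start (chr9:54699309-54699608, plus strand) holds 2 motifs that do not overlap.
Dnaja4: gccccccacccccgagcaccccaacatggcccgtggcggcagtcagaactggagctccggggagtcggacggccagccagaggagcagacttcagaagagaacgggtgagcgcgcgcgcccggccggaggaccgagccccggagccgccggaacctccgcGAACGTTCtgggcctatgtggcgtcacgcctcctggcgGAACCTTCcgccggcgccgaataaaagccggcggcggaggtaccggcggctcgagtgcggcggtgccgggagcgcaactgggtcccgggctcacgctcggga
Hspa5 encodes BiP, the Hsp70 of the ER, and its window (chr2:34771840-34772139, plus strand) holds an ER stress element close before the start.
Hspa5: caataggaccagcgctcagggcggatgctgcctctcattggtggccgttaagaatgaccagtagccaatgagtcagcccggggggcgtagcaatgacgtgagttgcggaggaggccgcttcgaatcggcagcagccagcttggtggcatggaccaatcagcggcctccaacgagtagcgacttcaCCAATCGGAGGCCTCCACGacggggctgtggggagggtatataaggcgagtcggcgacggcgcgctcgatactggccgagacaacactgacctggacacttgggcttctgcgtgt
Dnajc3 encodes p58IPK, an ER J protein that also restrains the kinase PERK. Its window (chr14:118937682-118937981, plus strand) holds the same element.
Dnajc3: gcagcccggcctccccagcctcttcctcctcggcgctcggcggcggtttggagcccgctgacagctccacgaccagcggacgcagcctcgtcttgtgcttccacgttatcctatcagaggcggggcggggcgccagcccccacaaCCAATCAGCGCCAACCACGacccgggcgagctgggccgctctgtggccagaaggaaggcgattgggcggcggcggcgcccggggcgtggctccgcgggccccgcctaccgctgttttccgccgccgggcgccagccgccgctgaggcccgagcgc

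A heat shock motif stood in the window of 16 of the 57 genes (28.1%), against 17.0% of 27025 genes with a window. The overlapping form stood in 4, namely Hspd1, Hspe1, Hsph1 and Dnajb6 (7.02% against 0.662%). The windows of Hspd1 and Hspe1 share 285 of 300 bases, so the same motifs are counted for both genes. Among the 16, the near-identical windows of Hspa1a and Hspa1b are each counted. The ER stress element stood in 3, namely Hspa5, Hsp90b1 and Dnajc3 (5.26% against 0.137%). Hspa8 and Hsp90aa1 were among the genes without a window. A match describes letters only, and binding was not measured.

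Members differed widely in how bright their probe sets were. Mean intensity was 100 or more for 40 of the 70 genes and 1000 or more for 12. Medians of the arrays lay between 30.5 and 32.8, and 48 members lay above the median of every array whereas 9 lay below it on every array. The genes of 100 or more comprised 8 of 14 Hsp70 and Hsp110 genes, both measured Hsp90 genes and both chaperonin genes. They also held 3 of 4 class A, 5 of 13 class B and 19 of 27 class C J protein genes. Of 8 genes with an Hspb symbol, 1 was among them, Hspb11. Classes were set by symbol alone, and the Hspb gene of next highest mean was Hspb1, at 69.0. The members that remained under 20 included the testis genes Hspa1l, Dnajb3 and Dnajb7, and Hspb3 and Hspb9 among the small heat shock proteins.

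**Figure D1:**
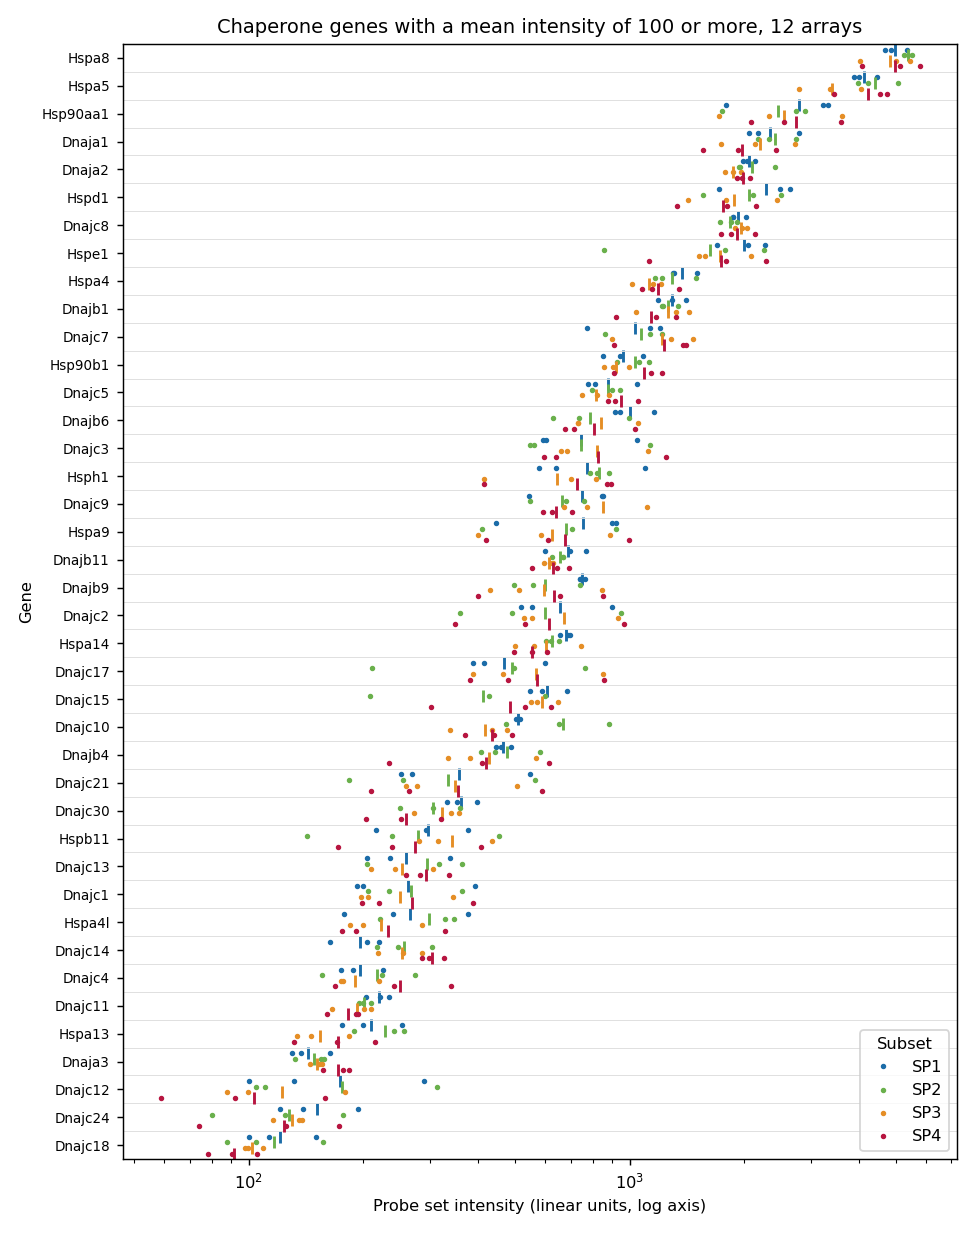
Intensity on each of the 12 arrays (points, coloured by subset) and subset means (vertical bars) for the 40 chaperone genes with a mean intensity of 100 or more, on a log axis in linear intensity units. The subset bars of a gene lie close together, with the highest subset mean at most 1.71-fold over the lowest, while single arrays spread further. Genes are sorted by mean for layout only, since levels of different probe sets cannot be compared.

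No member passed between any pair of subsets at an adjusted p under 0.05 without the block (limma, Benjamini-Hochberg over 45037 probe sets). Of all probe sets, 0% passed in SP2 vs SP1, 0% in SP3 vs SP2, 0.16% in SP4 vs SP3, 0.0111% in SP3 vs SP1, 0.557% in SP4 vs SP2 and 1.08% in SP4 vs SP1. For any difference among SP1 to SP4 the background was 0.582%, again with 0 members. At these rates fewer than 1 call among 70 genes corresponds to the background, so a count of 0 says little about the family. At an unadjusted p under 0.05, the counts of members were 1, 5, 2, 0, 4 and 5 in the same order of comparisons. The largest of these shares, 7.14% in SP3 vs SP2 and in SP4 vs SP1, stand beside 3.02% and 7.81% of all probe sets.

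For the brighter members the arrays give a rough bound on the size of change. No estimate of a member exceeded 2-fold in any of the 6 comparisons, but the offset of 16 lowers the fold of dim genes. Among the 40 genes of mean 100 or more, the highest subset mean exceeded the lowest by a median of 1.22-fold, and by less than 1.5-fold in 37. These are ratios of means and carry no interval. In SP3 vs SP2 the unadjusted 95% interval of the fold change lay within 2-fold either way for 30 of the 40, and for 39 with the replicate block. In SP4 vs SP1 it did so for 33, and for 39 with the block, with Dnajc15 the exception. Within 1.5-fold it lay for only 11 in SP4 vs SP1, and for 24 with the block. The 8 of largest fold there included Dnajc15, Dnajc18, Dnajb6 and Hspa14, with log2 fold changes of -0.37, -0.34, -0.33 and -0.30. None of these passed in either fit, and of the 8 only Dnajc14 was higher in SP4. Other probe sets of Dnajb6 gave 0.26, -0.23 and 0.20 in SP4 vs SP1, and none passed in either fit. The median log2 fold change of the 70 genes in SP4 vs SP1 was -0.06, against -0.01 over all probe sets, with 27 genes above 0 and 43 below. Over all 70 genes the subset of highest mean was SP1 for 21 (30%), SP2 for 19 (27.1%), SP3 for 8 (11.4%) and SP4 for 22 (31.4%), against 25.3%, 26.7%, 22.3% and 25.7% of all genes. Among the 40 brighter members it was SP1 for 16 (40%), SP2 for 11 (27.5%), SP3 for 4 (10%) and SP4 for 9 (22.5%). Of all genes of mean 100 or more, the shares were 32.8%, 20.4%, 14.4% and 32.5%. Among the 30 members of mean under 100 it was SP1 for 5, SP2 for 8, SP3 for 4 and SP4 for 13. The shares over all genes of mean under 100 were not counted. Groups of arrays in SP1 and SP4 did not overlap for 9 of the 70 genes (12.9%), against 12.5% of all probe sets.

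**Figure D2:**
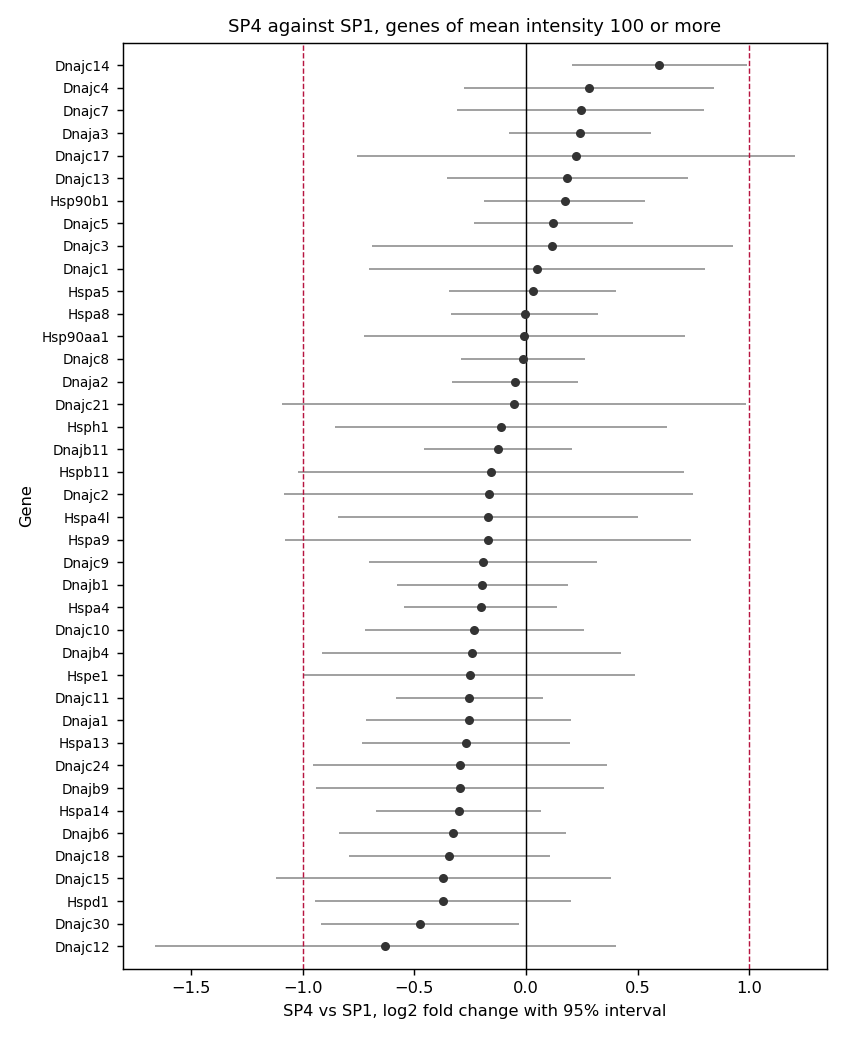
Log2 fold change of SP4 over SP1 (points, log2 of intensity plus 16) with unadjusted 95% intervals (bars) for the 40 chaperone genes of mean 100 or more, without the replicate block. Dashed lines mark 2-fold. Intervals of 33 genes lie within the lines, and the points run from Dnajc12 at -0.63 to Dnajc14 at 0.60.

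Hspa8 encodes Hsc70, the constitutive cytosolic Hsp70. Its intensity was 4844, 4697 and 5351 in SP1, 5265, 5526 and 5374 in SP2, 5009, 4020 and 5447 in SP3, and 5122, 4069 and 5770 in SP4. The ranges of all 4 subsets overlapped, and SP4 vs SP1 gave a log2 fold change of -0.01 (SE 0.15, adjusted p = 1). The 95% interval of the fold was 0.79 to 1.25, so that a change of 1.5-fold lay outside it. Hsp90aa1, the inducible cytosolic Hsp90, averaged 2780 ± 856 in SP1 and 2735 ± 771 in SP4 (SD, n = 3 each), with a log2 fold change of -0.01. Other Hsp90aa1 probe sets, of mean 2478 and 2122, gave -0.35 and -0.13, and neither passed in either fit. Hspa4, an Hsp110 type exchange factor, averaged 1370 ± 111 in SP1 and 1190 ± 141 in SP4 (adjusted p = 0.947).

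Dnaja1 and Dnaja2, the class A J proteins that serve Hsc70 in the cytosol, also moved little. Dnaja1 averaged 2339 ± 390 in SP1 and 1970 ± 435 in SP4 (log2 fold change -0.26, adjusted p = 0.962). Dnaja2 read 1991, 2133 and 2034 in SP1 and 2068, 1913 and 1973 in SP4, and these ranges overlapped. Dnajb1, the class B J protein induced with Hsp70 under heat shock, was lower in SP4 in each of 3 replicate pairs, with a log2 fold change of -0.20 that failed the test in both fits (adjusted p = 0.979, and 0.483 with the block). Hspb1, which encodes the small heat shock protein Hsp25, read between 53.7 and 86.4 on all 12 arrays, with a log2 fold change of 0.00 in SP4 vs SP1.

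In the ER, Hspa5 read 3895, 3998 and 4452 in SP1, 3981, 5053 and 4232 in SP2, 3368, 2791 and 4060 in SP3, and 4731, 3432 and 4541 in SP4. Its lowest subset mean was 3406 in SP3 and its highest 4422 in SP2, a log2 fold change of -0.38 in SP3 vs SP2 (SE 0.17) that did not pass (adjusted p = 1). Dnajc10, which encodes the ER disulfide reductase ERdj5, was likewise highest in SP2. It read 516, 503 and 510 in SP1, 652, 882 and 473 in SP2, 436, 475 and 338 in SP3, and 493, 441 and 370 in SP4. The SP2 arrays of replicates 1 and 2 lay above all others, whereas that of replicate 3 did not, and the log2 fold change of -0.63 in SP3 vs SP2 failed the test in both fits (adjusted p = 1, and 0.149 with the block). Hspa13, a microsomal Hsp70, gave -0.52 in the same comparison, with all 3 SP3 arrays below all 3 SP2 arrays, and did not pass either (adjusted p = 1). Dnajc10 and Hspa13 were picked after their values were seen. Hsp90b1, the ER Hsp90 known as Grp94, and the ER J proteins Dnajb9 and Dnajc3 had log2 fold changes of 0.17, -0.30 and 0.12 in SP4 vs SP1, and none passed.

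In mitochondria, Hspd1 read 2485, 2638 and 1721 in SP1 and 2150, 1799 and 1334 in SP4. It was lower in SP4 in 3 of 3 replicate pairs, although the groups overlapped, and its log2 fold change of -0.37 (SE 0.26) did not pass (adjusted p = 0.917). Its head to head neighbour Hspe1 gave -0.25, and Hspa9, the mitochondrial Hsp70 mortalin, gave -0.17, with an adjusted p of 1 for both. Dnajc15, an inner membrane J protein linked to protein import, read 549, 686 and 587 in SP1, 428, 208 and 600 in SP2, 648, 571 and 553 in SP3, and 301, 531 and 623 in SP4. SP2 replicate 2 and SP4 replicate 1 were the lowest arrays. Those 2 arrays were also the lowest for Hspe1, at 856 and 1127 against 1520 to 2287 on the other 10. Dnajc30, a J protein of the inner membrane that associates with ATP synthase, also had its 2 lowest values there, with 250 and 204, although SP4 replicate 3 was level with the former at 251. In all, these were the 2 lowest arrays for 12 of the 40 genes of mean 100 or more (30%), against 17.4% of 7250 such genes on the array, a count made after the values were seen. Dnajc30 gave a log2 fold change of -0.47 in SP4 vs SP1, with no overlap between the groups, which fell short of the threshold (adjusted p = 0.567).

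With the replicate number as a block, 5 of the 70 genes passed in SP4 vs SP1 (7.14%), against 5.16% of all probe sets. All 5 were J protein genes. Dnajc14, Dnaja4 and Dnajb13 were higher in SP4 (4.29%, against 3.39% of all probe sets), and Dnajc6 and Dnajc12 were lower (2.86%, against 1.77%). These shares are near the background. With the block 0 members passed in the other 5 pairs of subsets (limma), against 0.00888% of probe sets in SP2 vs SP1, 0.22% in SP3 vs SP2, 1.16% in SP4 vs SP3, 0.329% in SP3 vs SP1 and 2.65% in SP4 vs SP2. At an unadjusted p under 0.05 these counts were 5, 8, 2, 7 and 11, or 7.14%, 11.4%, 2.86%, 10% and 15.7% of members, against 8.12%, 8.67%, 11%, 8.44% and 13.7% of all probe sets. In SP4 vs SP1 the count was 13 (18.6%, against 16.7%). Only Dnajc6 passed for any difference among the subsets (adjusted p = 0.0217, background 3.7%).

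Dnajc6 encodes auxilin, which recruits Hsc70 to strip clathrin from vesicles. Its intensity was 118, 116 and 70.1 in SP1, 55.1, 57.3 and 63.8 in SP2, 117, 118 and 67.7 in SP3, and 61.2, 64.8 and 38.0 in SP4. Levels alternated along the subsets, being high in SP1 and SP3 and low in SP2 and SP4 in replicates 1 and 2, with a smaller difference in replicate 3. No array of SP4 overlapped SP1 or SP3, and the log2 fold change was -0.72 in SP4 vs SP1 (SE 0.24, adjusted p = 0.307, and 0.0168 with the block) and -0.71 in SP4 vs SP3 (0.686, and 0.0511 with the block). A probe set of Dnajc6 that was not used to represent it gave -0.64 in SP4 vs SP1 (adjusted p = 0.244, and 0.0113 with the block) and 0.13 in SP3 vs SP2. The step from SP2 to SP3, at 0.61 in the probe set of highest mean, was smaller in the other. The summed double positive thymocyte markers were also highest in SP3 and lower in SP2. Of the 9 markers 0 passed between subsets without the block, and with it 2 were higher in SP3 vs SP2, 1 was lower in SP4 vs SP3, 0 passed in SP4 vs SP1 and 3 passed for any difference (8 had an unadjusted p under 0.05 in SP3 vs SP2, and 0 in SP4 vs SP1, without the block in limma). In addition, Dnajc6 and all 9 of these markers were lower in replicate 3. Their part in the Dnajc6 values was not tested.

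Dnajc12, a J protein that assists aromatic amino acid hydroxylases, read 99.9, 132 and 289 in SP1, 110, 105 and 313 in SP2, 87.7, 99.4 and 179 in SP3, and 58.7, 92.1 and 159 in SP4. The arrays of replicate 3 were the highest of every subset, so SP1 and SP4 overlapped, although SP4 was the lowest subset within each replicate number. The log2 fold change in SP4 vs SP1 was -0.63 (SE 0.47, adjusted p = 0.939), and it passed with the block (0.0272). Leaving out 1 array at a time moved it between -0.95 and -0.22.

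Dnajc14 encodes an ER membrane J protein that binds the D1 dopamine receptor. It read 164, 205 and 220 in SP1, 217, 303 and 246 in SP2, 218, 285 and 255 in SP3, and 326, 285 and 298 in SP4. Every SP4 array lay above every SP1 array, with a log2 fold change of 0.60 (SE 0.18, adjusted p = 0.225, and 0.0229 with the block). The other probe sets of Dnajc14 both gave 0.28, and neither passed in either fit. Dnajb13, a J protein of the sperm flagellum, was near the array median and read 22.3, 26.2 and 14.6 in SP1 and 38.5, 30.6 and 30.7 in SP4. These groups did not overlap, and the log2 fold change was 0.42 (SE 0.12, adjusted p = 0.171, and 0.0343 with the block).

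**Figure D3:**
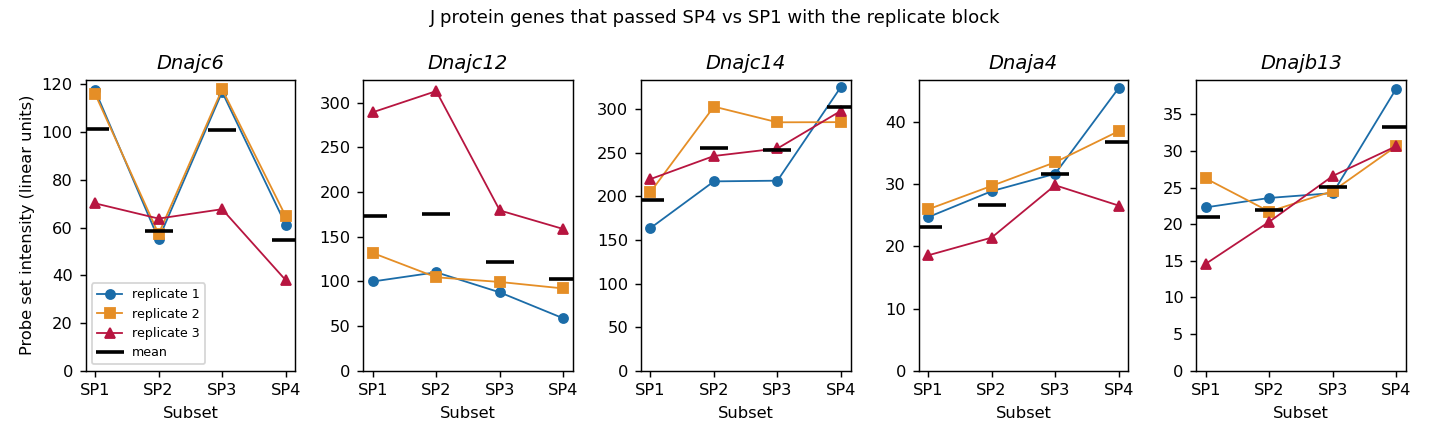
Intensity (linear units, axes from 0) of the 5 J protein genes that passed in SP4 vs SP1 with the replicate block, by subset. Coloured points joined by lines are the 3 replicate numbers and black bars are subset means. Dnajc6 alternates in replicates 1 and 2, Dnajc12 is highest in replicate 3 of every subset, and Dnajc14, Dnaja4 and Dnajb13 have their highest mean in SP4.

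Dnaja4 was the only member with a probe set that passed between subsets without the block, although not the one that represents it. Its probe set of highest mean read 24.7, 25.9 and 18.6 in SP1, 28.9, 29.7 and 21.4 in SP2, 31.7, 33.5 and 29.8 in SP3, and 45.4, 38.5 and 26.6 in SP4, with a log2 fold change of 0.42 in SP4 vs SP1 (SE 0.14, adjusted p = 0.313, and 0.0193 with the block). A second one gave 0.25 and passed in neither fit (adjusted p = 0.634, and 0.236 with the block). The probe set of lowest mean of its 3, singled out after its values were seen, read 15.2, 15.0 and 19.4 in SP1, 18.6, 21.1 and 21.1 in SP2, 15.7, 19.0 and 19.1 in SP3, and 33.4, 29.8 and 42.4 in SP4. There every SP4 array exceeded all 9 others. Of the 169 probe sets of the family, no other passed in any of the 6 comparisons without the block, and this one did in SP4 vs SP1 (log2 fold change 0.65, SE 0.10, adjusted p = 0.00927). Of all probe sets 1.08% passed there, so 1 call among 169 is not above the background. In SP4 vs SP3 this probe set gave 0.59 (adjusted p = 0.0525, and 0.00345 with the block) and in SP4 vs SP2 0.49 (0.0635, and 0.00494 with the block). With all probe sets of Dnaja4 averaged, SP4 vs SP1 gave 0.44 and passed without the block (adjusted p = 0.00848). All of these levels lay near the median of the arrays, where the offset of 16 lowers the fold. Genes that mark NKT and innate-like T cells were also higher in SP4, with 4 of 7 passing in SP4 vs SP1, and 7 of 7 with the block. The same held for 2 of 7 that mark activated and memory T cells, and for 4 of 7 with the block. Of all probe sets, 1.08% passed in SP4 vs SP1, and 5.16% with the block. Cxcr3 is on both marker lists, so the counts are not separate. The part of these cells in the Dnaja4 values was not tested.

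Replicate number accounted for more of the variance of the family than subset did. The median share over the 70 genes was 51.7% for replicate number, 19.6% for subset and 23.4% for the rest, against 38.2%, 20.2% and 31.5% over all probe sets. Replicate number took the larger share in 46 of the 70 genes. Replicate 3 differed from replicates 1 and 2 in 38 members (54.3%), against 37.9% of all probe sets at an adjusted p under 0.05 in limma with subset in the model. Of these, 30 were higher in replicate 3 (42.9%, against 20.3% of all probe sets) and 8 were lower (11.4%, against 17.7%). These counts are of the probe set of highest mean of each gene. Other probe sets of the same genes were called in both directions, so the counts cannot be read as a rise of the family. Brighter genes were called more often on these arrays. Among genes of mean 100 or more, 60% of the 40 members were called, against 52.4% of 7250 genes, with 47.5% higher and 12.5% lower against 28.8% and 23.6%. Leaving out 1 array at a time gave between 26 and 44 such genes. The labels do not say what sets replicate 3 apart. The study's captions give its array repeats dated prefixes, and it lists a Gapdh ratio of 3′ to 5′ signal, a sign of RNA quality, for each repeat. No source used here ties these repeats to the replicate numbers of the labels, and their part in the shift was not tested.

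The largest shift of the family belonged to Hspa1b. Its intensity was 29.2, 25.7 and 95.5 in SP1, 22.0, 18.9 and 119 in SP2, 33.1, 18.9 and 122 in SP3, and 27.3, 22.3 and 174 in SP4. All 4 arrays of replicate 3 lay at 95.5 or above and all 8 others at 33.1 or below. The replicate 3 array was thus highest in every subset, although not by the same amount, with 95.5 in SP1 and 174 in SP4. Replicate 3 exceeded the others by 1.80 on the log2 scale (adjusted p = 2.53e-07), while all 3 probe sets of Hspa1b gave between 1.37 and 1.87. The offset of 16 lowers these values, since the arrays of replicates 1 and 2 lay near or below the array medians. The near-identical Hspa1a rose by 0.75 (adjusted p = 0.000327), with 13.5, 31.8, 29.7 and 44.8 in replicate 3 against at most 12.3 on the other arrays. Probes for 1 of the pair may read the other, so the 2 genes cannot be parted with certainty. Neither passed in SP4 vs SP1 (log2 fold change 0.19 for Hspa1b and 0.33 for Hspa1a, adjusted p = 1 for both).

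Other members that were higher in replicate 3 spread over several compartments. Dnajc3 averaged 1134 in replicate 3 and gave a log2 fold change of 0.88 (adjusted p = 6.76e-06). Dnaja1 gave 0.41, Dnajb9 0.50, Hspe1 0.56 and Hsph1 0.49, and all passed. The largest shifts after Hspa1b, taken by size after the values were seen, were 1.13 in Dnajc21, which takes part in ribosome biogenesis, 1.11 in Dnajc12, 0.99 in Dnajb14, an ER membrane J protein, and 0.95 in Dnajc2, which sits on the ribosome. Hspa8 (0.19), Hspa5 (0.17), Dnajb1 (0.20) and Hspb1 (0.12) did not pass, with adjusted p-values of 0.121, 0.288, 0.114 and 0.382. This holds for their probe sets of highest mean, since another probe set passed as lower for Dnajb1 (-0.77, adjusted p = 0.000319) and for Hspa8 (-0.32, adjusted p = 0.0282).

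Among the 8 that were lower in replicate 3, Hspa9 gave the largest shift, at -0.91 (adjusted p = 0.000169), with 445, 409, 400 and 419 in replicate 3 against 585 to 994 on the other arrays. Hsp90aa1 gave -0.60 and Hspd1 -0.56. Hspd1 and Hspe1, whose transcripts start on opposite strands of 1 shared promoter, had probe sets called in opposite directions, since that of Hspe1 was higher by 0.56. Their replicate 3 values were 1721, 1561, 1424 and 1334 for Hspd1 and 2270, 2254, 2084 and 2287 for Hspe1. Within each subset Hspd1 was lowest and Hspe1 highest on the array of replicate 3. Hspd1 has 1 probe set, and the other probe set of Hspe1 gave 0.41 and did not pass (adjusted p = 0.0948), so the opposite shifts are those of these probe sets.

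Probe sets of 1 gene did not always agree on replicate 3. Of 23 genes with at least 2 probe sets of mean 100 or more, 7 had probe sets called higher and others called lower, namely Dnajb4, Dnajb6, Dnajc1, Dnajc3, Dnajc5, Hsp90aa1 and Hsph1. How many other genes had such opposed calls was not counted, while 52.4% of all genes of mean 100 or more were called in replicate 3. The count therefore cannot be read as particular to the family. For Hsp90aa1 a second probe set gave 0.45 against -0.60. For Dnajb6, a J protein that suppresses aggregation, the probe set of highest mean gave 0.48 and another -1.77. For Hspa9 a second probe set gave -0.02. In Hsph1 the probe set of highest mean read 1099, 819, 817 and 892 in replicate 3, the other read 192, 170, 140 and 134, and the latter lay below its values on all other arrays. A shift in replicate 3 is thus that of a probe set and cannot be read as that of the gene for these 7.

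**Figure D4:**
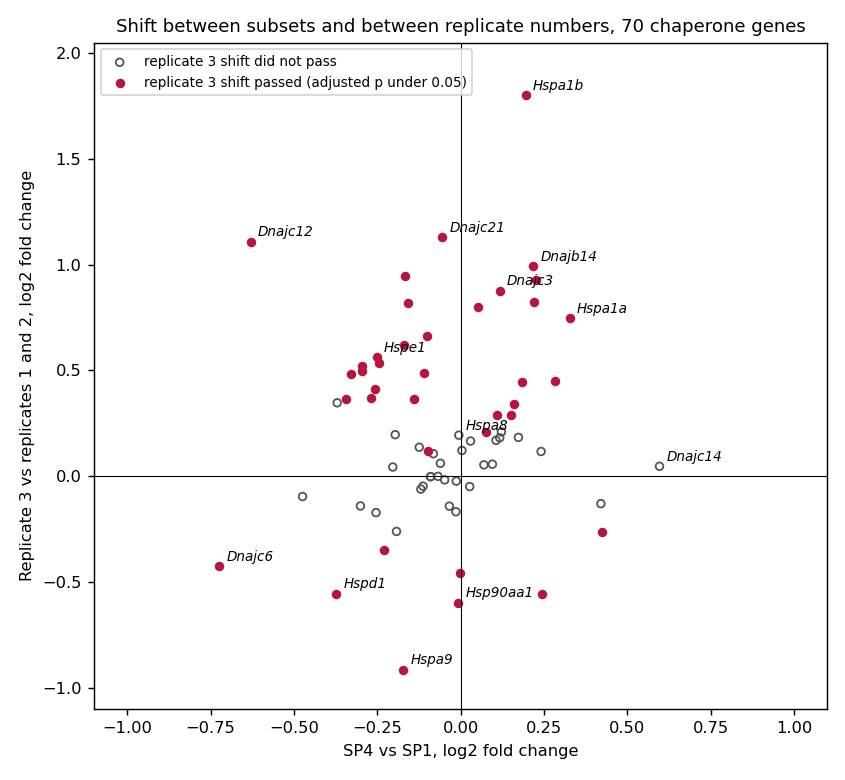
Log2 fold change of each of the 70 chaperone genes in SP4 vs SP1 (horizontal axis) and in replicate 3 vs replicates 1 and 2 (vertical axis). Filled points passed for replicate 3 at an adjusted p under 0.05, and open points did not. Points run from -0.72 to 0.60 between subsets and from -0.91 to 1.80 between replicate numbers, with Hspa1b at the top.

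Lists of chaperone partners, mitochondrial proteases and immediate early genes also lacked calls between subsets. At most 1.08% of all probe sets passed in any pair without the block, so counts of 0 say little about these lists. Without the block, 0 members passed in any of the 6 comparisons among 4 measured genes of the heat shock factor list, 11 Hsp70 nucleotide exchange factors, 20 cochaperones of Hsp70 and Hsp90, 14 subunits of TRiC and prefoldin, 22 ER folding and unfolded protein response genes, 8 mitochondrial proteases and 15 immediate early genes. Hsf1 and Hsf3 were not measured, so nothing can be said of Hsf1. Of the 4, Hsf4 and Hsf5 lay under 20, and only Hsbp1, named as a binding protein of the factors, had a mean of 100 or more. Their median log2 fold changes in SP4 vs SP1 were -0.14, -0.10, -0.15, -0.25, -0.23, 0.07 and 0.18 in that order, and 0, 1, 0, 1, 2, 0 and 4 of their genes had an unadjusted p under 0.05 there (limma). All probe sets had 7.81%, and the immediate early genes 26.7%, while the other lists had at most 9.09%. With the block, Fkbp4, an immunophilin that binds Hsp90, was lower in SP4 vs SP1 (-0.60, adjusted p = 0.0394), as was Edem1, which feeds misfolded glycoproteins to degradation (-0.57, adjusted p = 0.0319). Among the immediate early genes, which are quickly induced by receptor signals and by cell handling, Nr4a1 was lower with the block (-1.24, adjusted p = 0.000221), and Egr3 (0.84) and Btg2 (0.55) were higher.

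In replicate 3 most of these lists had genes called both ways. Among the cochaperones 4 were higher and 7 lower, among TRiC and prefoldin subunits 3 and 7, among ER folding genes 5 and 8, and among mitochondrial proteases 0 and 5. The lower ones made up 35%, 50%, 36.4% and 62.5% of these lists, against 23.6% of all genes of mean 100 or more, and the higher ones 20%, 21.4%, 22.7% and 0%, against 28.8%. Of 15 immediate early genes 2 were higher and 4 lower, with Jun at -1.25, Ier2 at -1.21 and Nr4a1 at 0.64. All 9 double positive thymocyte markers and 5 of 7 B cell markers were lower in replicate 3. The part of these in the chaperone shifts was not tested. Without the block 0 markers of B cells (7 measured), myeloid and dendritic cells (8), erythroid cells (4) and thymic epithelial and stromal cells (10) passed between subsets, and with the block 2 myeloid markers passed in SP4 vs SP2 and 1 in SP4 vs SP1.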

How the data were processed

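The 12 arrays were grouped by the subset given in the labels, and 3 arrays per subset limit the precision. The deposited table holds linear intensity values of 45037 probe sets, background-corrected and normalized by the authors. RMA is the method in the paper and MAS5 that in the submitters' processing notes, and which of them made these values was not settled. RNA was extracted with Trizol from pooled, sorted cells. The raw scans were not reprocessed. The array annotation, which can be old, names 1 gene for 34945 probe sets, several for 932 and none for 9160, and 3 probe sets that name a family member with other genes were left out.

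Here 16 was added to each intensity before log2, which understates fold changes of dim probe sets. A model with 1 mean per subset (8 residual degrees of freedom) was fitted to all probe sets with limma 3.58.1 in R 4.3.3 (lmFit, eBayes with trend), and the 6 pairs of subsets and an F test over subsets were tested. Benjamini-Hochberg adjustment ran over all probe sets of a comparison, and an adjusted p under 0.05 was a call whatever the fold. Replicate 3 was set against replicates 1 and 2 with subset in the model. The code was tested on simulated data. P-values measure the spread between these arrays, and the fit without the replicate block takes the arrays as independent. The paper gives 3 independent preparations of the subsets from pooled thymi, so arrays of different subsets may share a preparation. Shared preparations would make p-values without the block inexact.

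The labels give each subset the same 3 replicate numbers. Deviations of same-numbered arrays from their subset means correlated between 0.279 and 0.883 in 18 pairs of arrays. Those of number 3 with 1 or 2 correlated between -0.812 and -0.388, and those of 1 with 2 between 0.178 and 0.729. Deviations sum to 0 within a subset, which pushes correlations between numbers down. These values set number 3 apart, but they do not show that numbers 1 and 2 each mark a pairing. The block takes the numbers to pair the arrays, and this was not settled. The fit with the replicate block had 6 residual degrees of freedom.

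Named genes were those passing in either fit between subsets, the 5 of highest mean, the 8 of largest fold in SP4 vs SP1 with a mean of 100 or more, and textbook members. Members, lists and tests were chosen with earlier results of these data known. Alternatives changed the offset, filter on dim probe sets, normalization, arrays in the fit, trend, probe set of a gene and replicate block, and left out each array. Protein sequences were not analysed here.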

Additional observations from a re-analysis of the deposited data

How the results depend on the processing

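The counts of chaperone genes passing stayed at 0 in all 6 comparisons between subsets and in the F test with an offset of 1 or 64, quantile normalization, no trend, only the arrays compared, a mean of at least 32, or another choice of probe set by suffix. Each array left out in turn also gave 0, with the smallest adjusted p in SP4 vs SP1 between 0.0879 and 0.437, and between 26 and 44 genes for replicate 3. With the replicate block the count was 5 in SP4 vs SP1 and 1, Dnajc6, for any difference among the subsets. With the mean of all probe sets of a gene it was 1 in both, Dnaja4. Both choices together, an alternative chosen after seeing the data, gave 2 in SP4 vs SP2 (Dnaja4 and Dnajc12), 4 in SP4 vs SP1 and 2 for any difference. Among the probe sets that represent the 70 genes, the block changed no other call between subsets. Of the 5 genes that passed with the block, none turned direction under the alternatives that gave a value, and Dnaja4 and Dnajb13 had none at a mean of at least 32. The cause of these differences was not tested. Signal over background limits the genes near the array median, among them Dnaja4, Dnajb13 and Hspa1a.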
